A study of Mus musculus with 6 samples.

Results

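Olfactory sensory neurons (OSNs) were sought that had reached maturity without a transcript of a conventional odorant receptor (OR). A mature OSN was a cell with at least 10 UMIs of *Omp*, the olfactory marker protein, more *Omp* than *Gap43*, at least 5 UMIs summed over the transduction genes *Cnga2*, *Adcy3* and *Gng13*, and under 5 UMIs of *Cyp2g1*, a gene of the sustentacular support cells. Of 24830 cells with at least 1000 UMIs and 500 genes, 5535 passed, and 213 of them were chosen by holding at most 1 UMI summed over the 1267 genes whose symbol starts with Olfr. They are called receptor-low OSNs here and are compared with the 5002 mature OSNs of the same libraries that held at least 10 Olfr UMIs (receptor-high OSNs). The remaining 320 mature OSNs held 2 to 9. The selection left other receptors unread, and 61 of the 213 receptor-low OSNs carried the transcript of another receptor or of an OR listed under an older name, so that "lacking a receptor transcript" held at most for the other 152.

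The cells came from 6 droplet single-cell RNA-seq libraries (10X Chromium) of papain-dissociated mouse main olfactory epithelium, labelled as OSNs. Control replicate 1 carried Cre recombinase without the conditional allele at *Cbx1*, and control replicate 2 carried that allele on both chromosomes without Cre. Both swap libraries carried both conditional alleles together with Cre recombinase, which removes *Cbx1* (HP1β) and turns on a *Cbx5* (HP1α) coding sequence in its place. The gg8-tTA library carried a tetracycline transactivator driven by the *Gng8* promoter of immature OSNs, and the tetOP2 library added the tetO-driven P2 receptor (*Olfr17*) with GFP. Ages were not given in the sources used here, and each of the gg8-tTA and tetOP2 groups is 1 library. Values are given in the order control 1, control 2, swap 1, swap 2, gg8-tTA and tetOP2. The libraries held 58498968, 59045808, 63277934, 60729307, 35298494 and 32005196 UMIs. *Xist* was counted in the receptor-low OSNs of swap replicate 1 (613 UMIs), gg8-tTA (278 UMIs) and tetOP2 (150 UMIs) and was at 0 in the other 3 libraries, so that the libraries differed in sex, within the swap pair too. No cell barcode was shared between libraries among receptor-low OSNs.

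In the olfactory epithelium each mature OSN transcribes 1 allele of 1 OR gene, and the encoded receptor signals through the G protein Golf, adenylyl cyclase 3 and a cyclic nucleotide-gated channel. The choice is made in immature OSNs from heterochromatic clusters, and the other OR genes stay silent. A small set of OSNs uses other chemoreceptors: trace amine-associated receptors (Taars), which detect volatile amines and lie in 1 gene cluster, or components of a cyclic GMP pathway such as *Gucy2d* and *Gucy1b2*. The Taar genes of these files lie on chromosome 10 of GRCm38.p6, from *Taar1* (chr10:23920406-23921404) to *Taar9* (chr10:24108488-24109534).

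Start regions are shown for 3 genes on which the description of the receptor-low OSNs turns: *Taar6*, the Taar found most often, and *Psmd14* and *Tbr1*, neighbouring genes on chromosome 2. Both were high in the cells with a Taar and were also found in the cells with *Gucy1b2*. Each run is 300 bases, from 250 before to 50 after the start used in the RefSeq sequence table (GRCm38.p6). For *Tbr1* that start lies inside the annotated gene (chr2:61802863-61814114), downstream of the gene's first base, so that the region belongs to a transcript that begins there. *Taar6* is on the minus strand (chr10:23985597-23985896), and *Psmd14* (chr2:61711444-61711743) and *Tbr1* (chr2:61804203-61804502) are on the plus strand. Capitals mark TAATTA, a homeodomain-type motif that is its own reverse complement.
Taar6: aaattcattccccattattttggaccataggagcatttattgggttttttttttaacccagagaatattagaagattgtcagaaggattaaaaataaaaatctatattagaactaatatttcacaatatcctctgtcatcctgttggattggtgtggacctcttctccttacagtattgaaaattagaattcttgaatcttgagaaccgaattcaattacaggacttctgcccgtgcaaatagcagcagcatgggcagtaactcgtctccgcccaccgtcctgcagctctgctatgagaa
Psmd14: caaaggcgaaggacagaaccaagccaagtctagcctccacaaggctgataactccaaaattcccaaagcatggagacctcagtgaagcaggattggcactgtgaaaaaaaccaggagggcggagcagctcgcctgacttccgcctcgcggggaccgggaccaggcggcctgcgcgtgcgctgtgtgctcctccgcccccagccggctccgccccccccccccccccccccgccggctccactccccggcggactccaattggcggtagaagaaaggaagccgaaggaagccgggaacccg
Tbr1: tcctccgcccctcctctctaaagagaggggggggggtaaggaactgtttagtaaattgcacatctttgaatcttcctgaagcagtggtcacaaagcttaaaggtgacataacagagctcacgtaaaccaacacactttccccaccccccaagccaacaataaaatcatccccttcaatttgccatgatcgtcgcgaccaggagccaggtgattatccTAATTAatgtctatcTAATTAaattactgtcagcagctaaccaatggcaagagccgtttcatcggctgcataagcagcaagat
The letters TAATTA occurred 2 times in the *Tbr1* region, the first at position -33 relative to that start, and not in the regions of *Taar6* and *Psmd14*. Over all 32851 RefSeq start regions of the same length, 5.29% held TAATTA, against 18.6% of 944 Olfr start regions and 1 of 11 Taar start regions. CCCNNGGG, a motif of EBF factors searched on both strands, was in 13.7% of all start regions, in 3.07% of the Olfr regions and in 0 of the 11 Taar regions. These are letter matches, not bound sites.

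Receptor-low OSNs were a few percent of mature OSNs in every library. They numbered 51, 46, 47, 44, 17 and 8 of 1130, 1274, 769, 1002, 689 and 671 mature OSNs. The shares were 4.51% (exact Clopper-Pearson 95% interval 3.38 to 5.89), 3.61% (2.66 to 4.79), 6.11% (4.52 to 8.04), 4.39% (3.21 to 5.85), 2.47% (1.44 to 3.92) and 1.19% (0.516 to 2.34), where the intervals cover counting error only. The share was highest in swap replicate 1 and lowest in tetOP2, and the ranges of swap and control overlapped. The order depended on the gate: with mature OSNs defined only by at least 3 *Omp* UMIs and *Omp* above *Gap43*, the shares were 5.35%, 4.70%, 7.28%, 5.10%, 8.94% and 9.14%, which put tetOP2 and gg8-tTA highest. With the full gate the share was 5.25% ± 1.22 in swap and 4.06% ± 0.638 in control (SD, n = 2 libraries each), a difference of 1.19 percentage points with p = 0.667 in a two-sided exact permutation test whose smallest possible p is 0.33. The kept cells of gg8-tTA and tetOP2 shared 13 barcodes and those of the control and swap libraries 5 to 10 in each pair, but at most 1 barcode was shared across these sets. The study's methods name a single kit version, and whether the sets differed in it, and its part in shares that rest on UMI limits, was not tested.

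**Figure D1:**
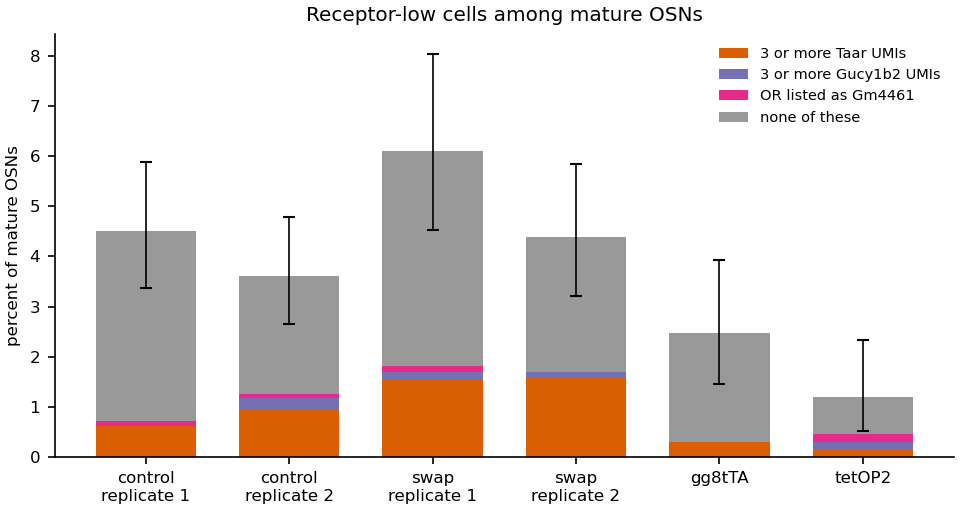
Receptor-low OSNs as a percentage of mature OSNs in each of the 6 libraries, stacked by receptor class, with exact 95% intervals of the total. The share runs from 1.19% in tetOP2 to 6.11% in swap replicate 1, and control and swap libraries overlap.

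The Olfr count that chose the cells had no gap at the limit. Of the 5535 mature OSNs, 116 held 0 Olfr UMIs, 97 held 1, 74 held 2 and 53 held 3, and between 22 and 42 cells lay at each count from 4 to 9, with 16 at 10 and 24 at 11. Receptor-high OSNs held medians of 75, 107, 63, 98, 98 and 98 Olfr UMIs. In sustentacular cells, which transcribe no OR, 23.3%, 35.3%, 23.1%, 28.8%, 64.8% and 56.3% of cells held more than 1 Olfr UMI. That background was highest in gg8-tTA and tetOP2, the libraries with the lowest receptor-low shares, and its part in the shares was not tested. With a limit of 0 Olfr UMIs the shares were 2.48%, 2.04%, 3.77%, 2.50%, 1.16% and 0%, and with every cell thinned to 3000 UMIs the shares without an Olfr UMI were 5.01%, 4.90%, 8.14%, 4.62%, 5.52% and 3.13%. In 3 of the 8 tetOP2 receptor-low OSNs the single Olfr UMI was *Olfr17*.

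Receptor-low OSNs were covered somewhat less deeply than receptor-high OSNs in most libraries, and shallow cells were more frequent among them. Their median UMI counts were 11265, 11896.5, 11716, 11997.5, 10979 and 11526, against 12588, 12934, 11579, 12729, 12138 and 11235 in receptor-high OSNs, lower in 4 of 6 libraries. Under 5000 UMIs were held by 12 of 213 receptor-low (5.63%) and 88 of 5002 receptor-high OSNs (1.76%), with the widest gap in control 2 (8.70% against 1.83%); in gg8-tTA and tetOP2 no receptor-low OSN was that shallow. At 3000 UMIs per cell the receptor-low OSNs had a mean of 1575 detected genes and the receptor-high OSNs 1573, a difference of 2.42 ± 8.35 genes (SD over 6 libraries, higher in 4 of 6, two-sided exact sign-flip permutation p = 0.5, adjusted p = 1 over 2 measures).

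The receptor-low OSNs passed as mature on the genes of the rule, which are described without a test. Their median *Omp* was 24, 44.5, 24, 39, 69 and 93 UMIs, against 29, 48, 32, 39, 105 and 105 in receptor-high OSNs, at or below the receptor-high median in every library. *Gap43*, a growth-associated gene of immature OSNs, had medians of 1, 0, 2, 0, 1 and 2 UMIs against 1, 0, 1, 0, 2 and 1. *Cnga2*, the channel subunit, had medians of 5, 6, 5, 7, 7 and 8 UMIs against 6, 8, 5, 8, 10 and 9. *Adcy3*, the cyclase, had medians of 4, 7, 3, 7, 4 and 4 UMIs against 5, 9, 4, 8, 7 and 7. The 3 marker genes were thus present in both classes, and in no library was a receptor-low median of *Omp*, *Cnga2* or *Adcy3* above the receptor-high one. *Cnga2* and *Adcy3* together stayed under 5 UMIs in 30 receptor-low and 343 receptor-high OSNs, which passed through *Gng13*, a G protein gamma subunit. *Adcy3* was at 0 in 24 receptor-low OSNs and *Cnga2* in 9.

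By the receptors they carried, the 213 cells fell into 4 classes. A Taar was present, with at least 3 UMIs, in 50 cells (23.5%), *Gucy1b2* in 6 further cells (2.82%), and an OR listed under an older name in 4 (1.88%). None of these was found in the remaining 153 cells (71.8%), which numbered 43, 30, 33, 27, 15 and 5 by library. They are called unassigned cells, and 1 of them, in tetOP2, held 8 Vmn receptor UMIs. The classes differed in depth, with median UMI counts of 13076 for the Taar cells, 16992 for the *Gucy1b2* cells, 13521.5 for the older-name cells and 10954 for the unassigned cells, and all 12 cells under 5000 UMIs were in the last class.

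Taar cells were 7, 12, 12, 16, 2 and 1 of the receptor-low OSNs. These were 13.7% (exact 95% interval 5.70 to 26.3), 26.1% (14.3 to 41.1), 25.5% (13.9 to 40.3), 36.4% (22.4 to 52.2), 11.8% (1.46 to 36.4) and 12.5% (0.316 to 52.7) of each library's receptor-low OSNs. No receptor-high OSN (0 of 5002) and no sustentacular cell (0 of 3270) held 3 Taar UMIs. For control replicate 1 the exact 95% interval of 0 of 1015 reached 0.363%. The mean share was 21% against 0%, a difference with an SD of 9.93 percentage points over 6 libraries, higher in 6 of 6. The two-sided exact sign-flip permutation p was 0.031, the smallest that 6 libraries can give, and 0.219 after Benjamini-Hochberg adjustment over 7 receptor families. With 1 UMI in place of 3, Taar was found in 65 receptor-low, 8 receptor-high and 8 sustentacular cells. With 10 UMIs, or with every cell thinned to 3000 UMIs, 28 receptor-low cells remained and the difference was 10.2 and 10.4 percentage points, higher in 4 of 6 libraries (exact sign-flip permutation p = 0.125, adjusted 0.438, for both).

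Each Taar cell expressed a single Taar. All 50 had exactly 1 Taar gene at 3 or more UMIs, and in 49 every Taar UMI came from 1 gene, with 83.3% in the remaining cell. Together the 15 listed Taar genes gave a median of 13.5 UMIs and up to 60 UMIs per cell. *Taar6* led in 26 cells (3, 6, 6, 9, 1 and 1 by library), with 5 to 60 UMIs and a median of 25.5, and had 699 UMIs in receptor-low against 3 in receptor-high OSNs. *Taar7d* led in 8 cells at a median of 5.5 UMIs, *Taar7b* in 6 at a median of 5, and *Taar2* in 2 at 47 and 54 UMIs. *Taar7a* and *Taar7f* led in 2 cells each, and *Taar4*, *Taar5*, *Taar8a* and *Taar8b* in 1 each. *Taar1*, *Taar3*, *Taar7e*, *Taar8c* and *Taar9* led in none. *Taar7* and *Taar8* genes are near-identical copies, so that their counts are uncertain. Just inside the limit, 6 cells held 3 Taar UMIs, and just outside it, 6 held 2.

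Among all mature OSNs 70 cells held a Taar at 3 or more UMIs, 9, 13, 13, 16, 15 and 4 by library. They were 0.796%, 1.02%, 1.69%, 1.60%, 2.18% and 0.596% of mature OSNs. The swap libraries were both above the controls (1.64% ± 0.0663 against 0.908% ± 0.158, SD, n = 2 each, difference 0.735 percentage points), where the exact permutation p of 0.33 is the smallest the design allows. In gg8-tTA 13 of its 15 Taar cells held 2 to 9 Olfr UMIs and were outside the receptor-low class.

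*Gucy1b2* encodes a soluble guanylyl cyclase subunit that marks a rare OSN type. It was at 3 or more UMIs in 7 receptor-low OSNs and 1 receptor-high OSN. The mean share over libraries was 5.99% against 0.0268%, higher in 4 of 6 libraries (two-sided exact sign-flip permutation p = 0.125, adjusted 0.292). The tetOP2 library, with 2 of 8 cells, carried much of this mean, and without it the difference was 2.15 in place of 5.96 percentage points. One of the 7 also held a Taar and is counted with the Taar cells. The other 6 came from control 2 (3 cells), swap 1, swap 2 and tetOP2 (1 each), and the leading cell held 168 *Gucy1b2* UMIs. They shared a set of transcripts of which few receptor-high OSNs held 10 or more UMIs (*Emx1* 3, *Sln* 1, *Guk1* 4 and *Wnt4* 6 of 5002 cells). These were the homeodomain gene *Emx1* at 10 to 25 UMIs, *Sln* (sarcolipin) at 10 or more UMIs in 5 of 6 cells and also in 2 Taar cells, the guanylate kinase *Guk1* at 24 to 74 UMIs, and the ligand *Wnt4* at 5 to 13 UMIs. *Adcy3* was at 0 to 1 UMI in them, and *Gnal*, the alpha subunit of Golf, at 1 to 12 UMIs (median 4, against a median of 38.5 in the Taar cells), while *Cnga2* had a median of 7.5 UMIs and *Omp* of 33.5. *Trpc2*, the channel of vomeronasal neurons, had 0 UMIs in receptor-low and 1 UMI in receptor-high OSNs, so that it could not be assessed here. In the annotation *Trpc2* (chr7:102083116-102096864) lies inside *Xntrpc* (chr7:102065491-102096864), whose count was 0 in the 6 libraries, and the part of this overlap in the counts was not tested.

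Other chemoreceptors were rare in both classes. *Gucy2d* was in 0 receptor-low cells and 1 receptor-high cell and Vmn receptors in 1 and 2 (exact sign-flip permutation p = 1 for both), the Vmn cell being 1 of the 8 receptor-low OSNs of tetOP2. No receptor-low OSN held 3 UMIs of the formyl peptide receptors (0 and 9 cells, exact sign-flip p = 0.25, adjusted 0.438) or of the Ms4a genes (0 and 24 cells, exact sign-flip p = 0.0625, adjusted 0.219). The mean shares were 0.151% and 0.440% in receptor-high OSNs and 0.174% and 0.416% in sustentacular cells. At shares this low, 0 of 213 receptor-low OSNs decides little. The vomeronasal marker list had a summed level of 342 ± 71.3 CPM in receptor-low and 337 ± 52.8 CPM in receptor-high OSNs (SD, n = 6), with *Gnao1* as its most abundant gene and *Trpc2* and *Tfap2e* at 0 in the receptor-low cells. With predicted doublets left out, *Gnai2*, a G protein subunit of vomeronasal neurons and other cells, was the 1 of 2 list genes tested that was called. It was at 0, 3.87, 29.5, 8.15, 15.4 and 30.1 CPM against 1.64, 1.58, 1.68, 2.05, 12.1 and 10.1 CPM (1.88 ± 0.43, edgeR adjusted p = 0.00435), higher in 5 of 6 libraries, and was not called without swap replicate 1 or with doublets kept. The *Gucy2d* neuron list had 102 ± 39.3 and 119 ± 24.4 CPM, with *Gucy2d* and *Cnga3* at 0 in the receptor-low cells.

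The 4 older-name cells expressed *Gm4461*, which RefSeq lists as *Olfr1564* (chr17:33215261-33216351), at 29 to 76 UMIs with a median of 44.5. They came from control 1, control 2, swap 1 and tetOP2, and *Gm4461* reached 10 UMIs in 0 receptor-high OSNs. They are OSNs with an OR that a selection by symbol does not see. Of 1110 protein-coding Olfr symbols in RefSeq, 1098 were listed under the same symbol. A further 4 OR genes, 1 of them a pseudogene in RefSeq, were listed under older names.

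*Psmd14*, which encodes a deubiquitinating subunit of the proteasome lid, reached 10 UMIs more often in receptor-low than in receptor-high OSNs of every library. Among receptor-low OSNs these were mainly Taar and *Gucy1b2* cells. At least 10 *Psmd14* UMIs were held by 58 of 213 receptor-low OSNs (27.2%, or 8, 16, 15, 14, 3 and 2 cells) against 24 of 5002 receptor-high OSNs (0.480%, or 0, 2, 1, 0, 2 and 19 cells). Of the 58, 40 were Taar cells (80% of 50), 5 were *Gucy1b2* cells (83.3% of 6), and 13 were unassigned cells (8.50% of 153). The median was 15 UMIs in Taar cells, 13 UMIs in *Gucy1b2* cells and 1 UMI in unassigned cells. Of the 24 receptor-high OSNs, 19 were in tetOP2, where 15 were led by *Olfr17*, which led 370 of the 627 receptor-high OSNs (59.0%) of that library. The level was not particular to receptor-low OSNs. Mature OSNs with 2 to 9 Olfr UMIs also reached it, in 2, 2, 0, 0, 18 and 3 cells by library. Of these, 2, 1, 0, 0, 13 and 2 held a Taar.

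*Psmd14* (chr2:61711694-61800376) ends just before *Tbr1*, a T-box factor of cortical neurons, on the same strand. At least 1 *Tbr1* UMI was in 29 of the 50 Taar cells and in all 6 *Gucy1b2* cells, at 1 to 7 UMIs in the latter. Among the unassigned cells, it was in 7 of the 13 with at least 10 *Psmd14* UMIs and in 3 of the other 140. Of the same 13, 9 held 1 or 2 Taar UMIs, below the limit for a Taar cell, as did 6 of the 140.

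**Figure D2:**
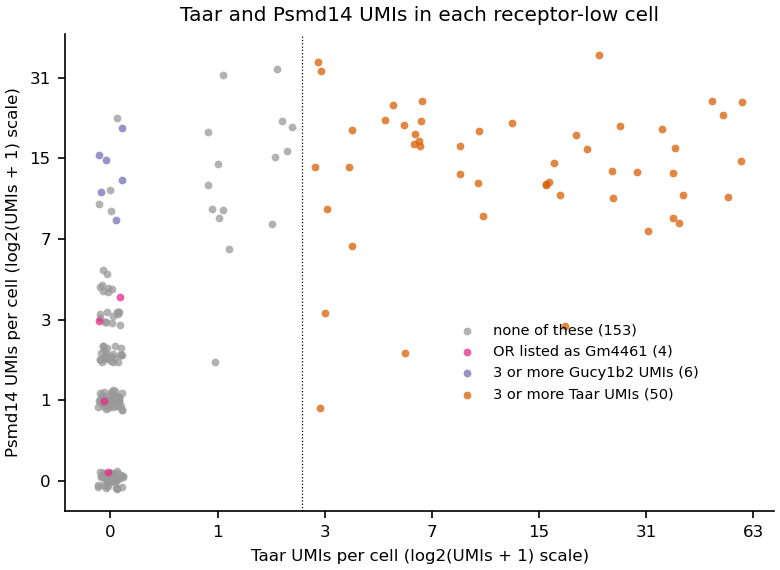
*Psmd14* UMIs against summed Taar UMIs per receptor-low OSN, coloured by receptor class, on log2(UMIs + 1) axes with the points shifted slightly at random. The Taar cells reach 60 Taar UMIs and have a median of 15 *Psmd14* UMIs, and the unassigned cells have a median of 1.

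Genes other than Olfr were then compared between the classes. UMIs were summed per library and class, which gave 88878 to 565755 UMIs per receptor-low sum and 7180210 to 15475081 per receptor-high sum, and edgeR's quasi-likelihood test was fitted over all genes with the library as a block. Called genes had to pass 0.05 after Benjamini-Hochberg adjustment together with an absolute log2 fold change above 0.58, and levels are TMM-normalised CPM, UMIs scaled to 1e+06 per sum. Of 11839 genes, 223 (1.88%) were called, 57 higher (0.481%) and 166 lower (1.4%) in receptor-low OSNs. The ± after a log2 fold change is a standard error derived from the statistic of that test. It is not a spread over libraries, so a small value can stand beside libraries that differ in direction, and the CPM per library show that spread. In such sums, fewer cells that transcribe a gene and less RNA per cell cannot be told apart.

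The lower genes with the smallest adjusted p were mostly markers of other cells, with at least 50% of their receptor-high UMIs in a few cells. Some were found more widely at low counts, with a UMI of *Bpifa1* in 47.4% and of *S100a8* in 18.8% of receptor-high OSNs. *S100a8*, a neutrophil calprotectin gene, was at 3.77, 13.4, 67.7, 6.12, 24.7 and 19.5 CPM in receptor-low and 131, 329, 664, 287, 32.4 and 76.9 CPM in receptor-high OSNs (log2 fold change -3.79 ± 0.19 SE, edgeR adjusted p = 6.79e-22). Each library was lower, but 5 of 5002 receptor-high OSNs held at least 50% of all *S100a8* UMIs of that class. *Ngp*, *Lcn2*, *Retnlg*, *BC100530* and *Chil4* (immune or secretory genes), *Bpifa1* (a gland product), and the collagens *Col1a1* and *Col1a2* were likewise among the 10 lowest adjusted p, each with at least 50% of its receptor-high UMIs in 1 to 5 cells. The 5 neutrophil markers summed to 79.6 ± 65.6 CPM in receptor-low and 777 ± 776 CPM in receptor-high OSNs, led by *S100a9*, and all 5 were called lower, as were 3 of 3 fibroblast, 3 of 4 macrophage and 2 of 4 sustentacular markers tested.

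Leaving out cells predicted to be doublets removed most of these calls. Predicted doublets were 9 of 213 receptor-low (4.23%) and 242 of 5002 receptor-high OSNs (4.84%). Without them 117 of 11471 genes were called (1.02%), 67 higher (0.584%) and 50 lower (0.436%), and 88 of these were among the 223. The neutrophil sum was then 71.4 ± 61.5 against 67.4 ± 61.2 CPM with 0 of 5 markers called, the macrophage sum 5.05 against 9.52 CPM with 0 of 2 called, the sustentacular sum 125 against 136 CPM with 0 of 4 called, and the fibroblast sum 80.5 against 135 CPM with 1 of 3 called. Of 3 ensheathing glia markers tested, 1 was called lower. The comparisons of receptor-low with receptor-high OSNs and of Taar with other receptor-low OSNs that follow leave predicted doublets out, while shares and counts of cells that hold a gene are over all 213 and 5002 cells, doublets included.

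**Figure D3:**
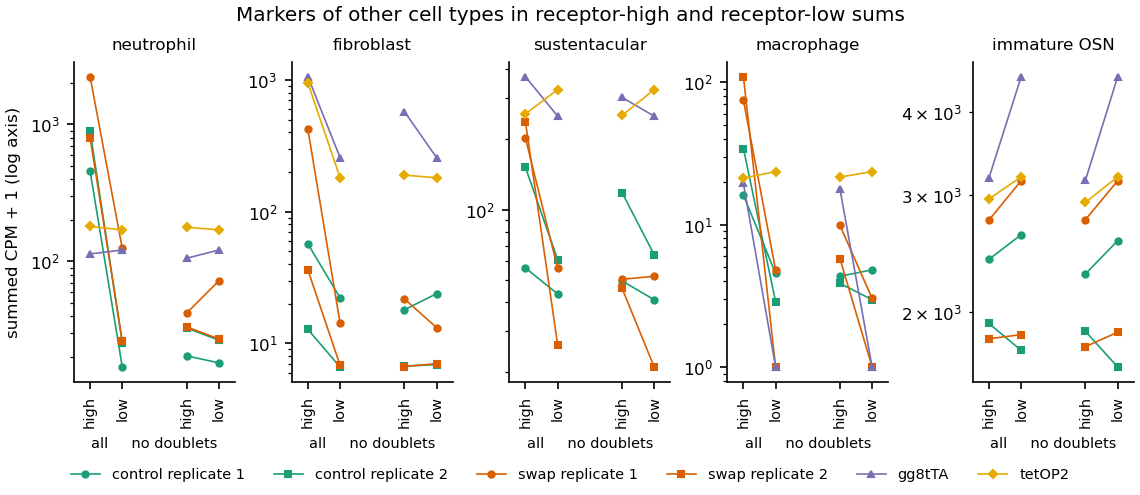
Summed CPM, with 1 added, on log axes for markers of neutrophils, fibroblasts, sustentacular cells, macrophages and immature OSNs in receptor-low and receptor-high OSNs, with all cells and with predicted doublets left out, one point per library. The neutrophil sum of receptor-high OSNs falls from a mean of 777 to 67.4 CPM once predicted doublets are left out.

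*Psmd14* was the clearest rise outside the receptors. It was at 422, 573, 647, 609, 384 and 502 CPM in receptor-low and 129, 113, 145, 123, 110 and 164 CPM in receptor-high OSNs (log2 fold change 2.05 ± 0.08, edgeR adjusted p = 4.62e-38), and the classes did not overlap. *Tbr1* was at 49.3, 34.8, 35.4, 34.6, 25.6 and 121 CPM against 0, 0.226, 0.14, 0.195, 2.16 and 10.5 CPM (5.55 ± 0.39, edgeR adjusted p = 1.78e-20). Its receptor-low sums were above the receptor-high sums in all 6 libraries, from 45 receptor-low OSNs (21.1%) with a *Tbr1* UMI against 1.32% of receptor-high OSNs.

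*Stbd1*, which encodes a glycogen-binding protein, was at 187, 228, 191, 175, 194 and 161 CPM against 123, 93.1, 105, 93.3, 113 and 87.6 CPM (0.91 ± 0.09, edgeR adjusted p = 1.15e-12), without overlap. *Tenm2*, a teneurin of synaptic adhesion, was at 475, 486, 350, 546, 322 and 261 CPM against 293, 339, 242, 312, 271 and 168 CPM (0.60 ± 0.07, edgeR adjusted p = 4.1e-10), higher within each library while the ranges overlapped. It stood at the fold limit and fell just below it without swap replicate 2. *Stbd1* was held by 69.0% of receptor-low and 58.9% of receptor-high OSNs, and *Tenm2* by 77.0% and 75.5%. The 50 Taar and 6 *Gucy1b2* cells held 212 and 54 of the 466 *Stbd1* UMIs of the receptor-low OSNs. In the receptor-low OSNs with no other chemoreceptor, with predicted doublets left out, neither gene was called, with *Stbd1* at 0.12 ± 0.12 (edgeR adjusted p = 0.789) and *Tenm2* at 0.23 ± 0.08 (edgeR adjusted p = 0.177).

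In other rises few cells held much of the UMIs. *Guk1* (1.21 ± 0.13, edgeR adjusted p = 9.73e-12) ran from 90.7 to 502 CPM in receptor-low and from 79.7 to 109 CPM in receptor-high OSNs, and 6 cells held at least 50% of its receptor-low UMIs. For *Dmrta2*, a doublesex-related factor (3.36 ± 0.38), 4 cells did so, and for *Fxyd6*, a regulator of the sodium pump (1.82 ± 0.24), 7 cells. *Pla2g16*, a phospholipase (1.76 ± 0.22), was held by 20.2% of receptor-low and 12.8% of receptor-high OSNs. *Gucy1b2* (8.01 ± 0.32) and *Taar6* (11.50 ± 0.24) repeat the classes described above.

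**Figure D4:**
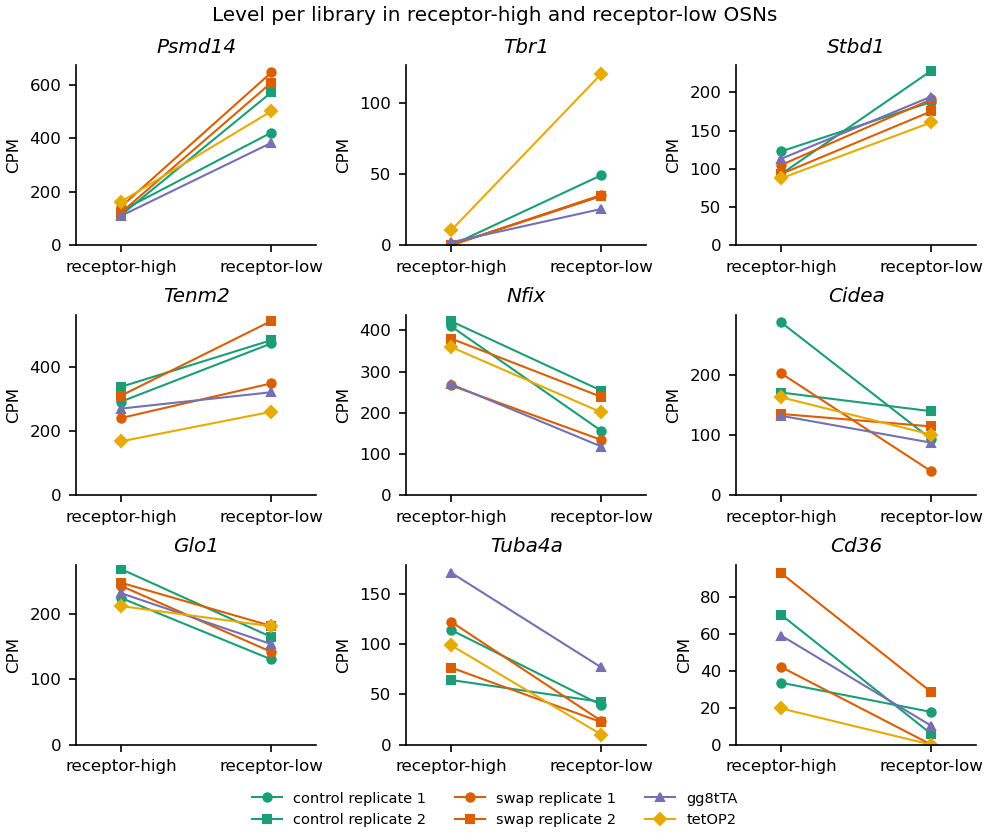
CPM of 9 named genes in the receptor-low and receptor-high sums of the 6 libraries. *Psmd14*, *Tbr1* and *Stbd1* lie higher and *Nfix*, *Glo1* and *Tuba4a* lower in the receptor-low sums.

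Among the lower genes, *Nfix*, a nuclear factor of ventral OSNs, was at 156, 253, 134, 238, 118 and 201 CPM in receptor-low against 410, 422, 266, 380, 269 and 359 CPM in receptor-high OSNs (-0.94 ± 0.08, edgeR adjusted p = 3.7e-15), without overlap. *Tuba4a*, an alpha-tubulin, was at 39.5, 42.6, 23.6, 22.4, 76.8 and 10 CPM against 114, 64.3, 122, 76.7, 171 and 98.8 CPM (-1.52 ± 0.15, edgeR adjusted p = 1.15e-12), lower within each library. *Glo1*, a glyoxalase, was at 130, 164, 142, 181, 154 and 181 CPM against 224, 268, 243, 247, 231 and 212 CPM (-0.64 ± 0.09, edgeR adjusted p = 5.44e-08). *Glo1* did not overlap either but was below the fold limit without control replicate 1 or without swap replicate 1 (both -0.55). The 3 genes were broadly held, *Nfix* by 55.9% against 74.1%, *Tuba4a* by 21.6% against 35.2% and *Glo1* by 75.6% against 84.4% of the cells.

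*Cidea*, a lipid-droplet protein of ventral OSNs, was at 92.7, 139, 39.4, 114, 87 and 100 CPM against 287, 170, 202, 135, 132 and 163 CPM (-0.96 ± 0.13, edgeR adjusted p = 4.12e-08), lower in every library. *Hopx* (-0.76 ± 0.12), a homeodomain-only protein, *Gldc* (-0.63 ± 0.10), of the glycine cleavage system, and *Pcdh10* (-0.63 ± 0.10), a protocadherin of glomerular sorting, were also lower in every library. *Pcdh10* was below the limit without control 2, swap 2 or tetOP2 (-0.44, -0.51 and -0.56) and *Gldc* without control 1 or tetOP2 (-0.49 and -0.56).

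Another 3 lower genes reached 10 or more UMIs in a subset of receptor-high OSNs. *Cd36*, a fatty acid translocase of a subset of OSNs, was at 17.8, 5.8, 0, 28.5, 10.2 and 0 CPM against 33.6, 70.5, 42.2, 93.1, 59.2 and 19.7 CPM (-2.26 ± 0.24, edgeR adjusted p = 9.73e-12). *Rprm*, a cell-cycle gene, was at 5.92, 46.4, 0, 0, 46.1 and 10 CPM against 65.9, 50.1, 73, 25.1, 90.5 and 48.1 CPM (-1.81 ± 0.26, edgeR adjusted p = 2.78e-07). *Avp*, vasopressin, was at 1.97, 11.6, 0, 0, 0 and 0 CPM against 194, 131, 76.4, 15.2, 21.6 and 10.1 CPM (-4.95 ± 0.29, edgeR adjusted p = 8.81e-25). All 3 were lower within each library. With at least 10 UMIs, *Rprm* was held by 117 receptor-high OSNs, among them 17 of the 20 led by *Olfr309*, *Cd36* by 141, among them 10 of the 21 led by *Olfr769*, and *Avp* by 40, among them 7 of the 10 led by *Olfr1346*. In all, these cells were led by 53 ORs for *Rprm*, 68 for *Cd36* and 17 for *Avp*, and a link to the OR was not tested. For *Avp*, 5 receptor-high OSNs held at least 50% of all UMIs of the class, with up to 1608 in 1 cell. A UMI of *Avp* was in 2.82% of receptor-high and 1.41% of receptor-low OSNs. With so few carriers, the lack of cells with 10 or more *Avp* UMIs among 213 receptor-low OSNs decides little.

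Over all genes tested, 1.02% were called between all receptor-low and receptor-high OSNs. At that share, 0 calls in lists of OSN machinery of 4 to 16 genes each decide little about them. No gene of the lists for transduction (0 of 13 tested, median log2 fold change -0.23), receptor trafficking and feedback (0 of 11, 0.08), receptor choice and silencing (0 of 16, -0.07), further mature OSN markers (0 of 4, -0.23) or activity-dependent genes (0 of 10, -0.27) was called, beside a median of -0.08 over all genes tested. Of the immature OSN list, *Gng8* was called among 8 (0.80, adjusted p = 0.0344 by edgeR). It was at 15.8, 5.80, 21.6, 20.4, 415 and 20.1 CPM against 7.03, 15.8, 31.6, 7.13, 104 and 112 CPM, higher in 3 of 6 libraries. It was far highest in gg8-tTA, whose transgene uses the *Gng8* promoter, and 0 of the 8 were called without that library or with doublets kept. The summed level of the list was 2825 ± 1046 against 2463 ± 573 CPM (SD, n = 6, higher in 5 of 6). Of the 12 guidance genes, *Nrp2* (0.74) was higher and *Nrp1*, *Kirrel3* and *Pcdh10* lower. Of the 3 lower genes only *Kirrel3* was called with each library left out, and 1 gene of the list was called higher each time. Of 9 stress genes, *Trib3*, a pseudokinase of the unfolded protein response, was higher (0.75). Of 6 ventral genes, *Nfix*, *Cidea* and *Rprm* were lower with each library left out in turn, and of 4 dorsal genes 0 were called. With a library left out, *Nqo1* was lower without control replicate 1 or swap replicate 1, and *Cd55* and *Socs2* were higher without swap replicate 2.

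The Taar cells were then set apart. After predicted doublets were left out, 48 Taar cells in sums of 1 to 16 cells were compared with the receptor-high OSNs, and 219 of 11225 genes were called (1.95%), 77 higher (0.686%) and 142 lower (1.27%). Without swap replicate 1 it was 84 genes, 37 higher and 47 lower, and without control replicate 1 or 2 it was 131 and 119. The sums of gg8-tTA and tetOP2 held only 2 and 1 cells. *Psmd14* was at 1403, 1232, 1427, 994, 1055 and 1244 CPM against 142, 117, 160, 130, 128 and 190 CPM (3.12 ± 0.16, edgeR adjusted p = 5.69e-79), and *Tbr1* rose by 6.88 ± 0.35 on the log2 scale (edgeR adjusted p = 2.43e-82). *Nrp2*, a semaphorin receptor that sorts OSN axons along the dorsoventral axis, was at 263, 343, 355, 381, 171 and 239 CPM against 106, 92.1, 114, 113, 68.6 and 70 CPM (1.67 ± 0.17, edgeR adjusted p = 4.65e-19). *Tenm4*, a teneurin, was at 213, 210, 96.8, 180, 85.5 and 47.8 CPM against 36.2, 57.1, 30.5, 47.7, 41.4 and 25.6 CPM (1.89 ± 0.23, edgeR adjusted p = 7.56e-14). *Psmd14* and *Nrp2* did not overlap between the classes, and *Tenm4* overlapped through the single tetOP2 cell. *Stbd1* (1.56 ± 0.17), *Tmbim6*, a regulator of endoplasmic reticulum calcium (1.07 ± 0.17), and *Trib3* (1.61 ± 0.26) also rose.

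Of the dorsal, ventral and activity-dependent lists, 2 of 4, 3 of 6 and 6 of 10 genes tested were lower in the Taar cells. Called lower as well were 1 of 4 sustentacular markers (list median -1.40) and 1 of 8 immature OSN genes. Their part in the other calls was not tested. *Nqo1*, a quinone reductase of dorsal OSNs, was at 113, 147, 110, 26.4, 0 and 0 CPM against 622, 634, 660, 792, 1046 and 632 CPM (-3.10 ± 0.24, edgeR adjusted p = 1.47e-35). *Cd55*, a complement regulator, was at 12.9 CPM in swap replicate 1 and at 0 in the other 5 Taar sums, against 78.8, 176, 77.2, 219, 81.1 and 45.6 CPM (-5.44 ± 0.54, edgeR adjusted p = 1.18e-20). They were the 2 dorsal genes called of 4, with each library left out too, and *Acsm4* and *Socs2* were not called. *Cd36* was at 0 in all 6 Taar sums.

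*S100a5*, a calcium-binding protein whose transcript follows odour-evoked activity, was at 5362, 18145, 3893, 3341, 342 and 143 CPM in the Taar cells against 15767, 19836, 14199, 11037, 9516 and 13628 CPM (-2.10 ± 0.22, edgeR adjusted p = 3.86e-19). It was lower in each library, and the Taar cells of control 2 lay within the receptor-high range. Over all 213 receptor-low OSNs, 13 cells held much of the *S100a5* UMIs. The part of such cells in the Taar difference was not tested. Of the 10 activity-dependent genes, 6 were lower: *S100a5*, *Pcp4l1* (-1.30), *Fos* (-1.21), *Egr1* (-0.90), *Nr4a1* (-2.17) and *Lrrc3b* (-1.49). The list had a median of -1.05 beside -0.19 over all genes, and 4 to 6 of its genes were called with a library left out. Of the ventral genes *Nfix* (-1.0), *Cidea* (-0.71) and *Rprm* (-1.83) were lower, of which only *Nfix* was called without swap replicate 1. *Ebf1*, an activator of OR genes, was lower by -0.81 ± 0.19 (edgeR adjusted p = 0.00196), and it was the only gene called of the 16 of receptor choice. In transduction, *Slc12a2*, the chloride importer, was higher (0.61) and *Stoml3*, a stomatin of the cilia, lower (-0.86), with 11 of 13 not called.

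The receptor-low OSNs with no other chemoreceptor were compared in the same way. They were the 156 cells without 3 UMIs of a Taar, *Gucy1b2*, *Gucy2d*, Vmn or formyl peptide receptor, the 4 older-name cells among them, and 149, in sums of 5 to 42 cells, remained without predicted doublets. Against receptor-high OSNs, 95 of 11640 genes were called (0.816%), 27 higher (0.232%) and 68 lower (0.584%), and 39 of the 68 lower but 3 of the 27 higher had the same sign in all 6 libraries. The count was 39 without control replicate 1, 47 without gg8-tTA and 62 without swap replicate 1. Among the genes called lower were 2 of 3 fibroblast markers (*Col1a1* and *Col1a2*) and 1 of 3 ensheathing glia markers tested (*Fabp7*), whose part in the other calls was not tested. All 6 ventral genes were lower, at a median log2 fold change of -1.02 beside -0.11 over all genes. In the Taar cells the ventral median was -0.82 beside -0.19, with *Nfix*, *Cidea* and *Rprm* lower there too.

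*Cidea* was at 100, 122, 27.1, 25.5, 77.4 and 49.5 CPM against 291, 172, 205, 136, 133 and 164 CPM (-1.48 ± 0.13, edgeR adjusted p = 2.2e-26), and the classes did not overlap. *Nfix* was at 163, 298, 148, 240, 101 and 214 CPM against 415, 426, 269, 384, 272 and 363 CPM (-0.89 ± 0.09, edgeR adjusted p = 2.07e-18), lower in each library. *Ncam2*, an adhesion molecule of ventral OSN axons, was at 39.6, 76.9, 66.3, 25.5, 41.7 and 65.9 CPM against 101, 137, 78.4, 74.9, 51.3 and 53.7 CPM (-0.82 ± 0.16, edgeR adjusted p = 9.25e-05). It was lower in 5 libraries and not in tetOP2. *Rprm* (-1.79 ± 0.24), *Nfib* (-0.62 ± 0.13) and *Nfia* (-1.14 ± 0.33, edgeR adjusted p = 0.0376) were the others. With a library left out 3 to 5 remained called, *Nfix*, *Cidea* and *Rprm* each time, and the count was 3 without control replicate 1 and 4 in the swap and control libraries alone.

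Dorsal and activity-dependent genes were not called in these cells (0 of 4 and 0 of 10). *Nqo1* was at 1235, 477, 1015, 670, 346 and 0 CPM against 571, 617, 602, 756, 907 and 549 CPM (0.06 ± 0.07, edgeR adjusted p = 0.829), above the receptor-high level in control 1 and swap 1 and below it in the other 4 libraries. *S100a5* was at 19947, 26900, 12117, 9474, 9704 and 4649 CPM against 14475, 19323, 12960, 10539, 8257 and 11831 CPM, above the receptor-high level in both controls and gg8-tTA and below it in both swap libraries and tetOP2. Its pooled difference of -0.02 ± 0.05 (edgeR adjusted p = 0.941) thus averages opposite directions. *Nrp2* (-0.66), *Nrp1* (-0.87) and *Kirrel3* (-0.82), receptors and adhesion molecules of axon sorting, were lower. Of these 3 only *Nrp1* was called with each library left out, and it was the only one without control replicate 1 or swap replicate 1. *Tuba4a* (-1.65), *Glo1* (-0.76), *Cd36* (-1.66) and *Avp* (-4.72) were lower here too, where the few carriers of *Avp* limit its value as above. *Psmd14* stayed higher at 237, 234, 289, 353, 226 and 247 CPM against 131, 114, 146, 124, 111 and 165 CPM (1.05 ± 0.09, edgeR adjusted p = 9.69e-26), without overlap. This was a rise of sums and was not shown for most cells. Among the unassigned cells, doublets included, the median was 1 *Psmd14* UMI, and 13 cells held 10 or more. Of these 13, 9 held 1 or 2 Taar UMIs. The set still held cells with 1 or 2 Taar UMIs (15 of the receptor-low OSNs before doublets were left out), and their part in the *Psmd14* rise was not tested.

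The immature gene *Tubb2b*, a beta-tubulin, was higher by 1.06 ± 0.08, but the gg8-tTA sum alone reached 3093 CPM, 7 receptor-low cells held at least 50% of its UMIs, and without gg8-tTA the difference was 0.32 (edgeR adjusted p = 0.14). *Gng8* was at 18.6, 6.41, 27.1, 14.6, 471 and 16.5 CPM against 7.13, 15.9, 31.9, 7.2, 105 and 113 CPM (1.09 ± 0.18), higher in 3 libraries and highest in gg8-tTA as well. The immature OSN list summed to 4519 CPM in all receptor-low and 3161 CPM in receptor-high OSNs of that library, and the part of less mature cells in these 2 rises was not tested.

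**Figure D5:**
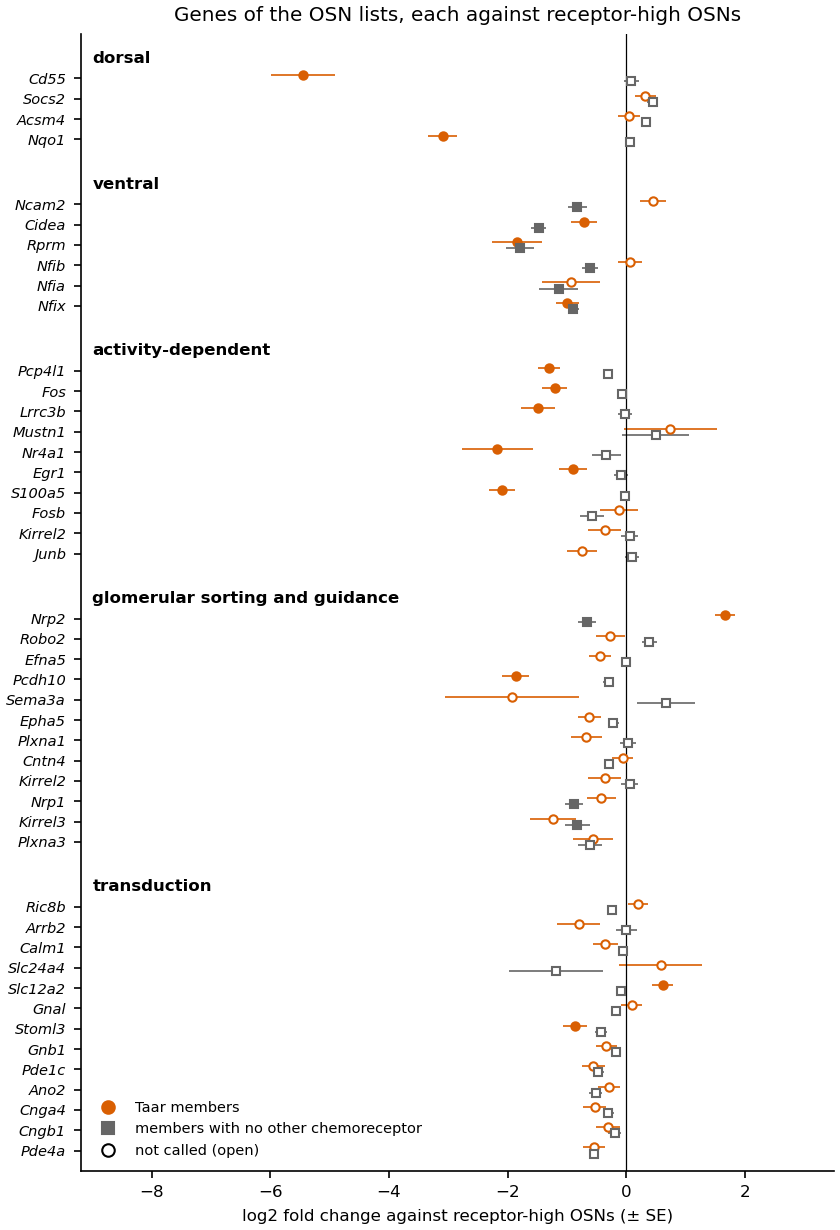
Log2 fold changes against receptor-high OSNs (± SE) of the dorsal, ventral, activity-dependent, guidance and transduction genes in the Taar cells and in the receptor-low OSNs with no other chemoreceptor, with predicted doublets left out and filled marks for called genes. The activity-dependent median is -1.05 in the Taar cells and -0.04 in the cells with no other chemoreceptor, and the ventral median is -0.82 and -1.02.

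The direct comparison of the 2 sets of receptor-low OSNs, each with predicted doublets left out, called 99 of 4258 genes (2.33%), 50 higher (1.17%) and 49 lower (1.15%) in the Taar cells. *Nrp2* was at 278, 355, 354, 376, 215 and 304 CPM in Taar cells and 60.1, 45.7, 46.2, 99.1, 66.2 and 78.1 CPM in the others (2.37 ± 0.20), without overlap. *Psmd14* (2.18 ± 0.14), *Tbr1* (3.23), *Stbd1* (1.58), *Trib3* (1.85) and *Ncam2* (1.18) were higher in the Taar cells by edgeR's test. *Ncam2* was the only one called of 4 ventral genes tested, none of which was lower, and it was not called without swap replicate 2. *Nqo1* (-3.17 ± 0.21, edgeR adjusted p = 4.6e-21), *Cd55* (-4.56), *S100a5* (-1.87 ± 0.17), *Pcdh10* (-1.50) and the basic helix-loop-helix genes *Olig1* (-2.40) and *Olig2* (-1.97) were lower. At the level of cells, 8 of 50 Taar cells held a *Nqo1* UMI, against 80 of the 153 unassigned cells. In the direct test 2 of 4 dorsal and 4 of 9 activity-dependent genes were lower.

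The loss of *Cbx1* was seen in the receptor-low OSNs. The levels of *Cbx1* and *Cbx5* given next are CPM without TMM scaling. *Cbx1* was at 91.9 and 170 CPM in the controls, 1.89 and 3.88 CPM in the swap libraries, 43.6 CPM in gg8-tTA and 33.8 CPM in tetOP2, from 52, 91, 1, 2, 8 and 3 UMIs. *Cbx5* was at 23 and 30 CPM in the controls against 70.1 and 93.1 CPM in swap, and at 10.9 and 0 CPM in gg8-tTA and tetOP2. The remaining comparisons keep predicted doublets. Between swap and control receptor-low OSNs, 1 of 6479 genes was called (0.0154%), which was *Cbx1* itself (-5.41 ± 0.58, edgeR adjusted p = 0.00441), with 97 genes at an unadjusted p below 0.05. *Cbx5* differed by 1.61 ± 0.38 with an edgeR adjusted p of 1.00.

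Whether the receptor-low against receptor-high difference itself differed between swap and control was tested as an interaction over the 4 libraries, and 4 of 11419 genes were called (0.035%). The count was 22 to 34 with 1 library left out, which leaves 1 of the groups with a single library, and 25 without the filter on low counts. *S100a5* was at 17293 and 22251 CPM in control receptor-low OSNs against 13804 and 17468 CPM in receptor-high ones, and at 8949 and 6605 CPM in swap against 12091 and 9647 CPM. Its summed level was thus higher in the receptor-low OSNs of both controls and lower in those of both swap libraries (-0.83). *Ppa1*, an inorganic pyrophosphatase, went the same way, at 1881 and 1703 CPM against 1013 and 761 CPM in control and 967 and 642 CPM against 1162 and 1329 CPM in swap (-1.66). *Ptn*, the growth factor pleiotrophin, went the opposite way, at 196 and 167 CPM against 247 and 198 CPM in control and 438 and 302 CPM against 203 and 185 CPM in swap (1.21). The fourth gene was *Fabp7*. Without predicted doublets 6 of 10821 genes were called, 3 of them among these 4: *S100a5* (-0.84), *Ppa1* (-1.73) and *Ptn* (1.11), while *Fabp7* was not (1.01, edgeR adjusted p = 1). The Taar cells had the lower *S100a5*. They were 13.7% and 26.1% of receptor-low OSNs in the controls and 25.5% and 36.4% in swap. Their part in the interaction was not tested. Of the 213 receptor-low OSNs, 13 held much of the *S100a5* UMIs of the class, with up to 1969 in 1 cell. Of the 5002 receptor-high OSNs, 482 did so, with up to 2290 in 1 cell. The part of such cells in the *S100a5* interaction was not tested.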

How the data were processed

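Matrices of 24564 genes by cell barcode were analysed for 6 libraries. The deposited values are raw UMI counts, made by the authors from 10X Chromium libraries with Cell Ranger with intronic reads, and mm10 is the build in the submitters' notes. Cells were kept and classed as given above. Genes starting with mt- were at 0 of 24564, so mitochondrial shares were not analysed. Part of the genotype labels is not reported here. Members and gene lists were chosen with earlier results of these data known. UMI counts were summed per library and class (8 to 1147 cells in the comparison of all receptor-low OSNs), filtered with filterByExpr and tested with edgeR 4.0.16 (R 4.3.3), quasi-likelihood, TMM, library block, Olfr and selection genes left out. Named genes are the rule's genes, list members called or defining a list, the 10 lowest adjusted p per direction with 1 sign in every library, and genes at 10 or more UMIs in 3 or more receptor-low and under 0.5% of receptor-high OSNs. Doublets were predicted from simulated pairs (0.8% per 1000 cells, 15 neighbours). Alternatives included DESeq2 1.42.0, RLE scaling and leaving out each library. Scripts ran in Python 3.11.15 and were tested on simulated data. Total UMIs ran from 32005196 to 63277934 per library.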

Additional observations from a re-analysis of the deposited data

Results flagged for a closer look

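A set of 4 genes had a receptor-low against receptor-high difference that differed between swap and control in an interaction test over 4 libraries. *S100a5* had an interaction of -0.83, *Ppa1* of -1.66 and *Ptn* of 1.21 on the log2 scale, and for each of the 3 both controls moved one way and both swap libraries the other. *Fabp7*, a glial fatty acid-binding protein, had 6.89, from 89 UMIs in the receptor-low OSNs of swap replicate 1 against 4, 0 and 3 in control 1, control 2 and swap 2. The ensheathing glia list summed to 207 CPM in the receptor-low OSNs of swap replicate 1. It summed to 6.08 CPM there once predicted doublets were left out, where *Fabp7* was no longer called (1.01). For *S100a5*, 13 of the 213 receptor-low OSNs held much of the UMIs of the class, and their part in its interaction was not tested.

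Taar transcripts were also present in mature OSNs outside both classes. Of 320 mature OSNs with 2 to 9 Olfr UMIs, 20 held at least 3 Taar UMIs, and 13 of these were in gg8-tTA.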

How the results depend on the processing

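The count of 223 genes between receptor-low and receptor-high OSNs was 68 with DESeq2 (34 higher and 34 lower), 4 without the library block, 45 against depth-matched receptor-high OSNs (35 higher and 10 lower), 117 without predicted doublets and 190 to 218 with a library left out, and 207 with RLE scaling, 284 without the filter on low counts, 164 in swap and control only (added after seeing the data) and 197 without cells of another chemoreceptor. The share of higher calls was 25.6%, against 50% with DESeq2, 77.8% depth-matched, 57.3% without doublets and 15.2% without cells of another chemoreceptor. *S100a8* (0.40), *Col1a1* (0.89) and *Col1a2* (0.21) reversed against depth-matched cells and *Lcn2* (0.35) without predicted doublets; the cause was not tested. The Taar and no-other-chemoreceptor comparisons, and the fits of swap against control (1 call) and of the interaction (6 calls) without predicted doublets, were chosen after seeing the data. Taar cells against receptor-high gave 84 to 209 calls with a library left out, 84 without swap replicate 1, and 322 with doublets kept. Cells with no other chemoreceptor gave 197 with doublets kept, 54 in swap and control only and 39 to 77 with a library left out, the lowest without control replicate 1. The Vmn difference of 2.05 percentage points reversed when thinned (-0.0183) and ran from -0.0393 (without tetOP2) to 2.48 with a library left out. Swap against control gave 2 calls with DESeq2, 0 without the filter and 13 to 34 with a replicate left out, and the interaction 25 without the filter and 22 to 34.

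With the replicate number as a block, the share difference had an exact sign-flip p of 0.5 and swap against control gave 1 call. The number is only a shared name in the labels. The small sums of gg8-tTA and tetOP2 limit what their receptor-low OSNs can show.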

Other observations

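Some receptor-low OSNs held transcripts other than receptors at a level that receptor-high OSNs rarely held. *Zfp78*, a zinc finger gene, reached 10 or more UMIs in 3 receptor-low OSNs, all of them without a Taar, *Gucy1b2* or older-name OR (up to 24 UMIs), against 1 of 5002 receptor-high OSNs. *Mrpl27*, a mitochondrial ribosomal protein gene, did so in 6 against 12, *Stbd1* in 8 against 8, *Ttc5* in 3 against 20 and *A830010M20Rik* (listed by RefSeq as *Btbd8*) in 4 against 20. These genes were picked by their counts and have no test.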
